A study of Mus musculus with 12 samples.

Results

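The 9 genes described here, Ebf1, Pax5, Pou2af1, Vpreb1, Igll1, Cd79a, Cd79b, Cd22 and Il7r, are genes of the early B-lymphoid lineage, taken by symbol from the 24411 genes listed in each library. Libraries were made from marrow cells gated as Lineage- cKit+, taken from lethally irradiated CD45.1+ mice that had received CD45.2+ donor marrow mixed with wild-type CD45.1+ support marrow. All 4 donor genotypes were on the C57BL/6 strain and carried Mx1-Cre, a Cre recombinase driven by an interferon-inducible promoter, and recipients of every group were given pIpC at 20 mg/kg in 3 doses. The control donors carried Mx1-Cre alone. The other donors added to it the inv(3) rearrangement, the Sf3b1 K700E mutation of a splicing factor in heterozygous form, or these 2 alleles together. Each genotype had 3 libraries, prepared 6 months after pIpC. Library totals ran from 73074797 to 86555638 expected counts. Mx1-Cre acts in many blood and non-blood cells, and the sources used here do not say whether donor cells were sorted from support and recipient cells. Nothing in the labels says that the 3 libraries of a group came from different mice, and p-values then take in only the spread of these samples, which may be technical. Kit, which defines the gate, had 31295 to 38916 counts in every library.

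B-cell precursors are specified by a cascade of transcription factors in which Ebf1 and then Pax5 switch on the B-lineage program, and they survive on interleukin-7 through the receptor chain Il7r. A precursor that has rearranged its heavy chain tests it by pairing it with the surrogate light chain, made of the products of Vpreb1 and Igll1, and signals through Cd79a and Cd79b. Cd22 is a sialic-acid-binding receptor that dampens B-cell receptor signals, and Pou2af1 is a coactivator that works with octamer-binding factors at immunoglobulin genes. In a lineage-negative, cKit-positive gate such transcripts are usually sparse, since most B-lineage cells carry lineage markers or have lost high cKit.

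The inv(3) libraries stand apart in sex-linked RNA, which bears on each comparison that uses them. Xist, which coats and silences the inactive X chromosome, had 142934 to 159594 counts in inv(3) and 1904 to 3239 in control, while the Y-linked gene Ddx3y had 0 to 2 counts in inv(3) and 8088 to 8379 in control. Sf3b1 K700E libraries held both, with Xist at 15810, 16248 and 6938 counts and Ddx3y at 8187 to 10780. The group with both alleles had 1944 to 3114 counts of Xist and 9751 to 10063 of Ddx3y. Absent Y-linked RNA and genotype cannot be told apart in comparisons with the inv(3) group.

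Promoter windows are shown for 3 members whose RNA was lower where inv(3) was present: Cd22, because its window holds a match to the EBF palindrome, TCCCTGGGGA, and Vpreb1 and Igll1, which lie next to each other on chromosome 16 with starts 5270 bases apart. The sequences are from RefSeq on GRCm38.p6, the patch series of mm10, read 5′ to 3′ on the gene's strand, and end at the base before the annotated start. Cd22 covers chr7:30879029-30879128, Vpreb1 chr16:16869256-16869505 and Igll1 chr16:16863986-16864235, all on the minus strand. The start used for Cd22, at 30879028, lies inside the gene's annotated span of 30865404 to 30880342, for which RefSeq lists 12 transcripts. The window shown is thus not upstream of the whole gene. Capitals mark matches to the EBF palindrome or its core CCCNNGGG, letters that EBF1 is known to bind, and to the E-box CAGGTG, which E proteins are known to bind, searched on both strands.
Cd22: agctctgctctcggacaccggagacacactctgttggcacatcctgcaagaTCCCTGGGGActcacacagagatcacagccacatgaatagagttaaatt
Vpreb1: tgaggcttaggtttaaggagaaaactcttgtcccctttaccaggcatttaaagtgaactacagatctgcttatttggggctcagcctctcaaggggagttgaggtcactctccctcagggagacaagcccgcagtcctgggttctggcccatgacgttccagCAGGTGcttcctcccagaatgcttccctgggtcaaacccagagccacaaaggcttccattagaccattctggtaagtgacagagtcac
Igll1: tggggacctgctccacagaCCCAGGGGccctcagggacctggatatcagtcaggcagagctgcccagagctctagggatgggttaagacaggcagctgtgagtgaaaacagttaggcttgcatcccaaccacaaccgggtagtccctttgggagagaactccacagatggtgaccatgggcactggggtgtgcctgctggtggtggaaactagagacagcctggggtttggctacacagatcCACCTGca

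Of the 9 members, 8 had a promoter window in the RefSeq table, in 9 windows since Ebf1 has more than 1 window there, and Cd79b had none. Within 250 bases before the start, the EBF palindrome was found in 0.779% of all 32851 windows and in 1 member window, that of Cd22. It starts 49 bases before the Cd22 start used here, which lies inside the annotated gene. The core CCCNNGGG, which lies inside the longer motif, was found in 11.8% of all windows and in 2 member windows. It starts 231 bases before the start of Igll1. CAGGTG or its reverse complement was found in 17.2% of all windows and in 4 member windows: 154 bases before the start of Cd79a, 88 before that of Vpreb1, 245 before that of Cd22 and 8 before that of Igll1. The octamer ATGCAAAT was in 1.6% of all windows and TATAAA in 12.4%, and neither set of letters was in a member window on either strand. A match is a description of letters, not a bound site.

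Per unit length, Cd79b was by far the most abundant member, and Pou2af1, Pax5 and Ebf1 were the least. In control, mean TPM, the authors' value scaled by transcript length and library depth, was 35.8 for Cd79b, 1.53 for Vpreb1, 1.37 for Igll1 and 0.997 for Cd22. Cd79a followed at 0.367, Il7r at 0.15, Pou2af1 at 0.0733, Pax5 at 0.0133 and Ebf1 at 0.00667. Libraries of Vpreb1 (1.47 to 1.60 TPM) and Igll1 (1.29 to 1.52) overlapped, as did those of Pax5 and Ebf1, so the order within these pairs is not beyond the spread. The other neighbours in the order did not overlap. TPM is given to 2 decimals in the files, so counts are used for the low genes.

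**Figure D1:**
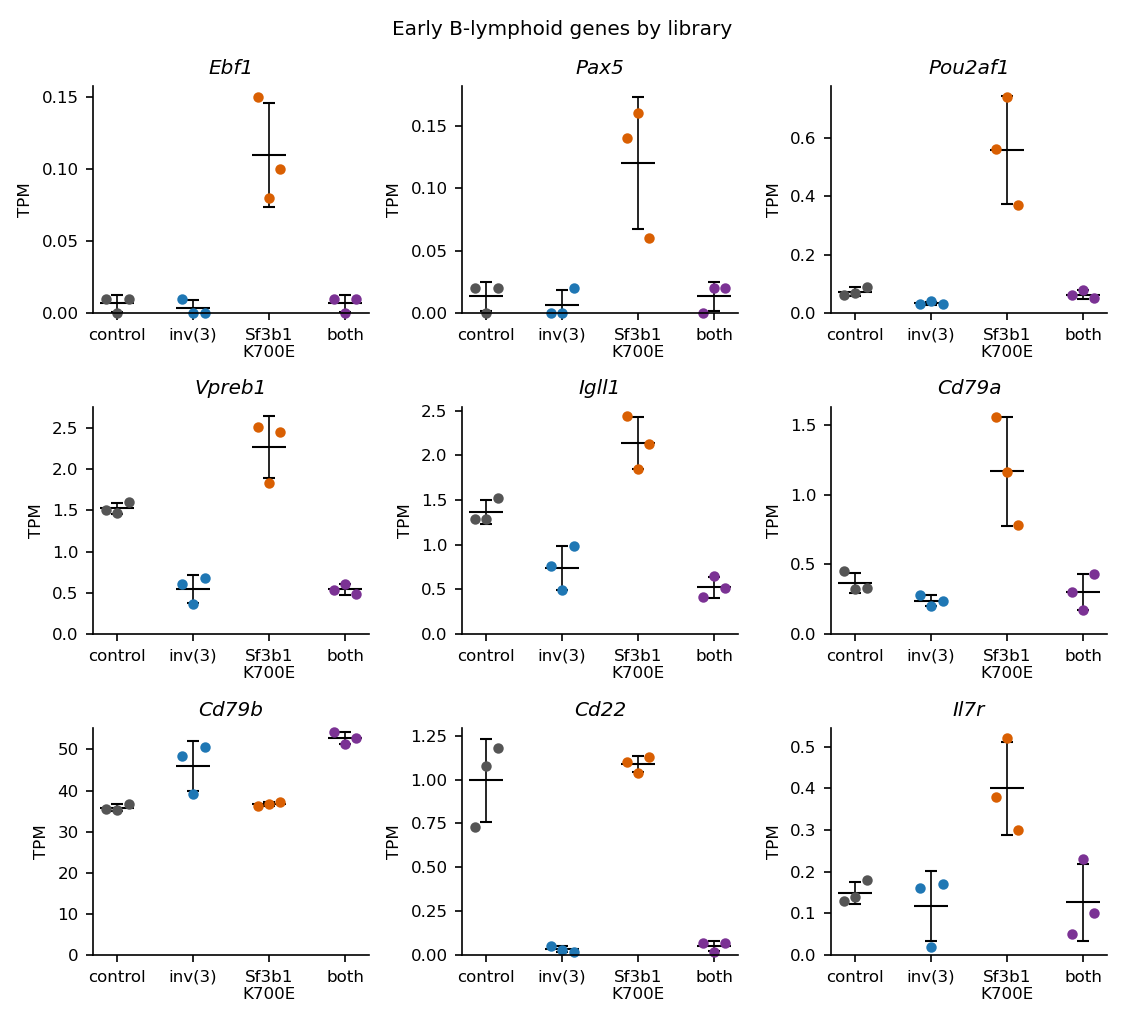
TPM of each of the 9 genes in the 12 libraries, with points for libraries and a bar for the mean with its SD (n = 3 per group). Ebf1, Pax5, Pou2af1 and Cd79a are highest in the Sf3b1 K700E libraries, Vpreb1, Igll1 and Cd22 are lower where inv(3) is present, and Cd79b is higher there.

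The transcription factors Ebf1 and Pax5 and the coactivator Pou2af1 had at most 10 counts in each library outside Sf3b1 K700E alone. Ebf1 (chromosome 11, 44618100 to 45008096) had 2, 1 and 2 counts in control, 3, 1 and 1 in inv(3), 34, 18 and 24 in Sf3b1 K700E and 2, 0 and 2 with both alleles. Every Sf3b1 K700E library lay above all 9 others. In such bulk samples, fewer cells of a type and less RNA per cell cannot be told apart. Its log2 fold change against control, here and below from edgeR with Benjamini-Hochberg adjustment over the 13755 tested genes, was 3.75 ± 0.53 (SE, n = 3 per group, adjusted p = 0.00495). Against Sf3b1 K700E, the group with both alleles was at -4.05 ± 0.55 (adjusted p = 9.78e-05).

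Pax5 (chromosome 4, 44524748 to 44710694), the factor that commits cells to the B lineage, was too low to be tested beside the other members. It had 7, 7 and 3 counts in Sf3b1 K700E and 0 or 1 in each of the other 9 libraries. As a ratio of summed counts per library total, Sf3b1 K700E was 8.36 times control, with an exact 95% counting interval from 1.98 to 74.6. The group with both alleles was 0.117 times Sf3b1 K700E, with an interval from 0.0131 to 0.494. These intervals cover counting error only. Without a low-count filter, its adjusted p was 0.0787 for Sf3b1 K700E against control and 0.022 for both alleles against Sf3b1 K700E. Non-coding RNAs overlap Pax5 in RefSeq. In GENCODE, genes also overlap Ebf1 (Gm12158), Pou2af1 (Gm47828), Vpreb1 (Top3b, a protein-coding gene) and Cd22 (Gm29439). In unstranded libraries reads of such neighbours where they overlap cannot be told from a member's own.

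Pou2af1 (chromosome 9, 51213690 to 51240079) had 6, 8 and 10 counts in control, 3, 5 and 4 in inv(3), 62, 75 and 44 in Sf3b1 K700E and 7, 9 and 5 with both alleles. The Sf3b1 K700E libraries again lay above all others without overlap. The gene rose in Sf3b1 K700E against control by 2.84 ± 0.33 log2 units (SE, adjusted p = 0.00381). It was lower with both alleles than with Sf3b1 K700E alone, at -3.02 ± 0.34 (adjusted p = 2.39e-05). Ebf1 and Pou2af1 passed the filter on low counts only through the Sf3b1 K700E libraries, so that a difference of those libraries is partly built into their being tested.

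The receptor chains Cd79a and Cd79b, which work as a pair in B cells, did not move as a pair here. Cd79a (chromosome 7, 24897497 to 24901858) had 23, 17 and 18 counts in control, 15, 11 and 14 in inv(3), 84, 57 and 45 in Sf3b1 K700E and 17, 9 and 22 with both alleles. The Sf3b1 K700E libraries did not overlap any other group, and the other 3 groups lay close together. Cd79a rose in Sf3b1 K700E against control by 1.60 ± 0.33 log2 units (adjusted p = 0.0158). This call ended without control replicate 2 (adjusted p = 0.0826), without control replicate 3 (0.0548) or without Sf3b1 K700E replicate 2 (0.0652). With both alleles it was lower than in Sf3b1 K700E, at -1.87 ± 0.34 (adjusted p = 0.000775).

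Cd79b (chromosome 11, 106311341 to 106314562) had 1613, 1674 and 1775 counts in control and 1744, 1598 and 1914 in Sf3b1 K700E, and these groups overlapped. It had 2325, 1870 and 2641 counts in inv(3) and 2747, 2438 and 2422 with both alleles. Cd79b rose in inv(3) against control by 0.47 ± 0.072 log2 units (SE, adjusted p = 0.000338). It was also higher with both alleles than in Sf3b1 K700E, by 0.62 ± 0.072 (adjusted p = 3.27e-05), while Sf3b1 K700E differed from control by -0.03 ± 0.072 (adjusted p = 0.86). In TPM it stood at 35.8 ± 0.877 in control (SD, n = 3) against 0.367 ± 0.0723 for its partner Cd79a. As a description over the 12 libraries, the log2 level of Cd79b had r = -0.69 with the mean of the other 8 members, while each of those had a positive r with its own other members, from 0.69 for Cd22 to 0.91 for Cd79a. These libraries fall into 4 genotype groups, so these values mostly compare groups. By this measure Cd79b went against the mean of the other 8 genes under the shared early B-lymphoid label. Those 8 did not all move alike: against control, Cd22 differed by 0.07 in Sf3b1 K700E and Ebf1 by 0.04 in inv(3).

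Cd22 was the member with the largest fall in inv(3). Cd22 (chromosome 7, 30865404 to 30880342) had 127, 196 and 218 counts in control and 202, 173 and 223 in Sf3b1 K700E, which overlapped. It had 10, 6 and 3 counts in inv(3) and 13, 4 and 12 with both alleles, far below and without overlap. The log2 change in inv(3) against control was -4.75 ± 0.38 (SE, adjusted p = 3.8e-06), and with both alleles against Sf3b1 K700E it was -4.27 ± 0.36 (adjusted p = 3.19e-06). Sf3b1 K700E differed from control by 0.07 ± 0.28 (adjusted p = 0.904). Cd22 thus parted from Pou2af1 and Ebf1 in that its level in control was already that of Sf3b1 K700E within the spread of the libraries.

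The surrogate light chain genes Vpreb1 and Igll1 moved side by side. Vpreb1 (chromosome 16, 16868401 to 16869255) had 40, 41 and 45 counts in control, 17, 10 and 21 in inv(3), 70, 46 and 74 in Sf3b1 K700E and 16, 17 and 13 with both alleles. Igll1 (chromosome 16, 16860671 to 16863985) had 40, 42 and 50 in control, 25, 16 and 35 in inv(3), 80, 55 and 75 in Sf3b1 K700E and 14, 21 and 16 with both alleles. For both genes every library with inv(3) lay below every library without it. Over the 12 libraries their log2 levels had r = 0.96, given as a description, since the libraries form 4 groups. Reads of near-identical copies can be split in counting. Vpreb2, a close copy of Vpreb1, had 0 to 4 counts.

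In inv(3) against control Vpreb1 was lower, at -1.35 ± 0.26 (SE, log2, adjusted p = 0.00155), and so was Igll1, at -0.76 ± 0.27 (adjusted p = 0.0408). The call of Igll1 ended in 11 of its 19 alternatives, at adjusted p = 0.0544 to 0.129, among them each fit without control replicate 1 (0.0694), 2 (0.0754) or 3 (0.12), inv(3) replicate 1 (0.0795) or 2 (0.129), Sf3b1 K700E replicate 3 (0.0564) or replicate 3 of both alleles (0.0547). With both alleles against control, Vpreb1 was at -1.44 ± 0.26 (adjusted p = 0.000918) and Igll1 at -1.36 ± 0.28 (adjusted p = 0.00226). With both alleles against Sf3b1 K700E the changes were -1.95 ± 0.25 (adjusted p = 7.12e-05) and -1.94 ± 0.27 (adjusted p = 0.000123). Between Sf3b1 K700E and control the differences of 0.50 ± 0.23 and 0.59 ± 0.25 did not pass (adjusted p = 0.189 and 0.161), although no library of the groups overlapped.

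Il7r (chromosome 15, 9506159 to 9529941) varied widely in inv(3) and with both alleles. It had 18, 20 and 26 counts in control, 22, 3 and 27 in inv(3), 54, 67 and 45 in Sf3b1 K700E and 8, 32 and 14 with both alleles. Sf3b1 K700E libraries lay above all others, and the remaining groups overlapped. The difference of 1.31 ± 0.54 log2 units between Sf3b1 K700E and control did not pass (adjusted p = 0.153), though it did with only those groups in the fit (adjusted p = 0.0259). With both alleles it was below Sf3b1 K700E, at -1.54 ± 0.55 (adjusted p = 0.037). That call ended with the replicate number as a block (adjusted p = 0.0594). It also ended without control replicate 2 (0.0527), Sf3b1 K700E replicate 1 (0.0631) or 2 (0.112), or the replicate 1 (0.123) or 3 (0.107) of the group with both alleles.

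**Figure D2:**
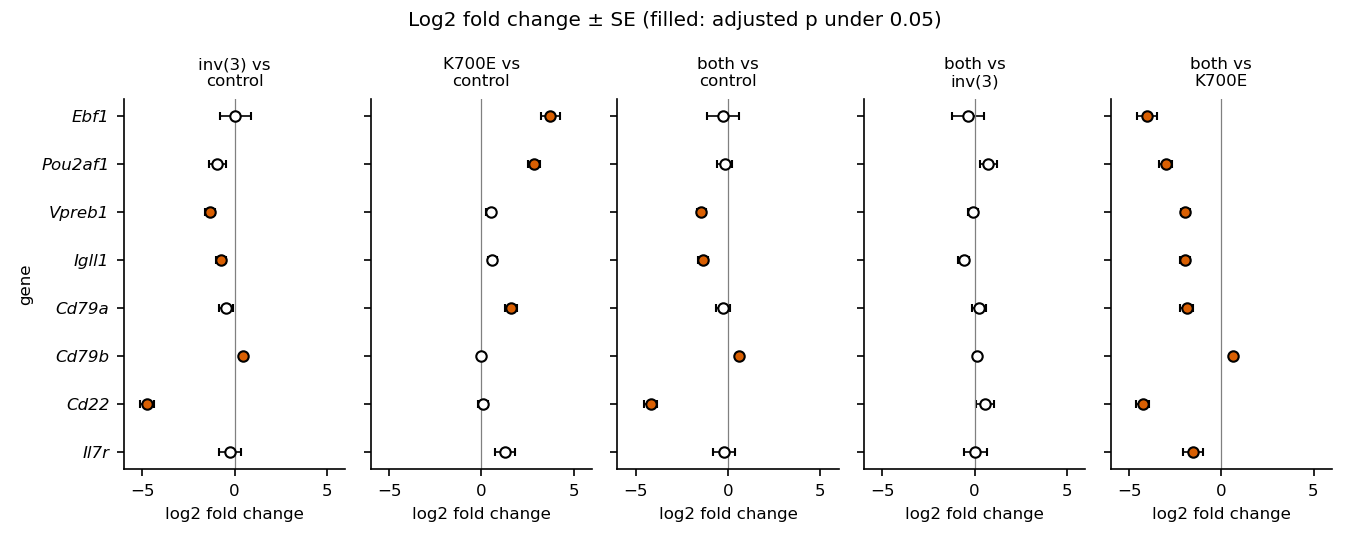
Log2 fold change with its SE for the 8 tested members in 5 comparisons (3 libraries per group), with filled points where the adjusted p is under 0.05. Ebf1, Pou2af1 and Cd79a are filled to the right in Sf3b1 K700E against control, and all but Cd79b are filled to the left with both alleles against Sf3b1 K700E.

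The comparison of inv(3) with control asks what the rearrangement does alone. Of the 9 members 8 were tested, of which 1 (Cd79b) rose and 3 (Cd22, Vpreb1 and Igll1) fell. Among all tested genes 18.4% rose and 20.3% fell, 38.7% in all. The median log2 change of the 8 tested members was -0.63, against 0.00 over all tested genes. Ebf1 (0.04 ± 0.83), Pou2af1 (-0.93 ± 0.46), Cd79a (-0.49 ± 0.38) and Il7r (-0.27 ± 0.60) did not pass.

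In Sf3b1 K700E against control, which asks what the splicing mutation does alone, 3 of the 8 tested members rose (Ebf1, Pou2af1 and Cd79a) and none fell. Among all tested genes 3.94% rose and 4.9% fell. Since Ebf1 and Pou2af1 were tested only because they were high in Sf3b1 K700E, this count is partly built in and is no support. Of the 6 members that passed the filter also in other groups, 1, Cd79a, rose. The share of all genes called either way, 8.84%, varied with the libraries used. In all 1216 genes were called, but 600 without control replicate 1, 214 without control replicate 2 and 560 without control replicate 3. Without Sf3b1 K700E replicate 2 it was 168, and over all fits with a library left out the number ran from 168 to 1649. Leaving a library out also makes its group smaller.

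With both alleles against control, 1 of 8 tested members was higher (Cd79b, by 0.59 ± 0.072) and 3 were lower (Cd22, Vpreb1 and Igll1), where 20.8% of all tested genes were higher and 20.4% lower, 41.1% in all. Cd22 was at -4.20 ± 0.36 (adjusted p = 3.9e-06). This comparison and the preceding 2 share the control libraries. Ebf1 (-0.30 ± 0.87), Pou2af1 (-0.19 ± 0.42), Cd79a (-0.27 ± 0.37) and Il7r (-0.23 ± 0.59) did not pass. All libraries of control and of the group with both alleles held Y-linked RNA, and Xist differed between them by -0.11 (adjusted p = 0.819).

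With both alleles against inv(3), the splicing mutation added to the rearrangement, none of the 8 tested members passed by edgeR, DESeq2 or limma-voom, and none had an unadjusted p under 0.05, a limit that 35.9% of all tested genes met. By adjusted p, 13.4% of all tested genes were higher and 9.13% lower, 22.6% in all. Pou2af1 differed by 0.75 ± 0.47 and Cd22 by 0.55 ± 0.50, and Ebf1 had 5 counts in inv(3) and 4 with both alleles over 3 libraries. At such counts only large differences could have been detected.

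With both alleles against Sf3b1 K700E, the rearrangement added to the splicing mutation, 7 of the 8 tested members were lower and Cd79b was higher, where 23.5% of all tested genes were lower and 25.7% higher, 49.2% in all. As Ebf1 and Pou2af1 were tested only through the Sf3b1 K700E libraries, their part of this count is built in. The other 5 lower members passed the filter also in control. The changes of the lower members ran from -1.54 for Il7r to -4.27 for Cd22. All 6 libraries held Y-linked RNA, but Xist differed between these groups by -2.39 (adjusted p = 0.000258). Genes of several other cell types were lower in this comparison too, among them all 14 tested macrophage genes (median -3.04). Of plasma cell genes 5 of 7 tested were lower and 2 higher, and of stromal and endothelial genes 4 of 6 were lower and 2 higher. Of NK and innate lymphoid genes 4 of 6 were lower, as were 4 of 6 plasmacytoid dendritic cell genes. Other lists were split: 1 of 5 tested T-cell genes was lower and 1 higher, and 2 of 7 progenitor genes were lower and 2 higher. Of 12 tested mature B genes 4 were lower and 3 higher, and of 14 tested B-cell receptor signalling genes 3 were lower and 8 higher. Vsig4, Mzb1, Klrd1, Prf1 and Cox6a2 met the low-count filter only with the Sf3b1 K700E libraries, so their part of these counts is partly built in. The part of these cell types' genes in the members' difference was not tested.

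Whether the effect of Sf3b1 K700E differed with and without inv(3) was tested by the interaction term. None of the 8 tested members passed by edgeR, DESeq2 or limma-voom, while 4 had an unadjusted p under 0.05, as did 16.4% of all tested genes. By adjusted p, 0.4% of all tested genes passed with a positive term and 0.436% with a negative one, 0.836% in all. The terms of those 4 were -4.09 ± 1.12 for Ebf1 (adjusted p = 0.11), -2.09 ± 0.61 for Pou2af1 (adjusted p = 0.131), -1.19 ± 0.38 for Igll1 (adjusted p = 0.155) and -1.38 ± 0.52 for Cd79a (adjusted p = 0.208). As Ebf1 and Pou2af1 were tested only through the Sf3b1 K700E libraries, their negative terms and their part of the 4 are partly built in. A p that misses the limit does not show that the effects were alike.

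Other early B-lineage genes were read from a list of 17, of which 16 were tested. In Sf3b1 K700E against control 6 rose and none fell: Rag1, Vpreb3, Blnk, Lef1, Ly6d and Foxo1. Among all tested genes 3.94% rose and 4.9% fell. Rag1, Vpreb3, Lef1 and Ly6d met the low-count filter only with the Sf3b1 K700E libraries, so this count is partly built in and is no support. Rag1, which cuts immunoglobulin genes for rearrangement, had 13, 7 and 14 counts in control and 73, 41 and 51 in Sf3b1 K700E, a log2 change of 2.19 ± 0.43 (adjusted p = 0.0132). Vpreb3 changed by 3.30 ± 0.70 and Blnk, the adaptor of the pre-B receptor, by 1.78 ± 0.48.

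Several genes of the same list, named here with their values known, were lower in inv(3) than in control, as Cd22 was. Dntt, the polymerase that adds bases at rearranging joints, had 681, 1195 and 1347 counts in control, 284, 21 and 93 in inv(3), 1758, 1381 and 1774 in Sf3b1 K700E and 22, 38 and 32 with both alleles. It changed by -2.97 ± 0.59 in inv(3) against control (adjusted p = 0.00238) and by 0.53 ± 0.52 in Sf3b1 K700E against control (adjusted p = 0.559). Rag2 changed by -3.22 ± 0.43 in inv(3), Flt3, a cytokine receptor of early lymphoid progenitors, by -2.98 ± 0.17 and Ikzf3 by -1.56 ± 0.26. Of the 16 tested, 7 fell and 1 rose in inv(3) against control, where 20.3% of all tested genes fell and 18.4% rose. With both alleles against Sf3b1 K700E 11 were lower and 2 higher, where 23.5% of all tested genes were lower and 25.7% higher. The part of Rag1, Vpreb3, Lef1 and Ly6d in the 11 is built in by the low-count filter. Among factors used across blood lineages, Spi1 rose in inv(3) by 0.53 (adjusted p = 0.00155), Bcl11a was lower at -0.43 (adjusted p = 0.000106) and Ikzf1 at -0.12 (adjusted p = 0.0168), and Tcf3 differed by -0.03 (adjusted p = 0.903).

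**Figure D3:**
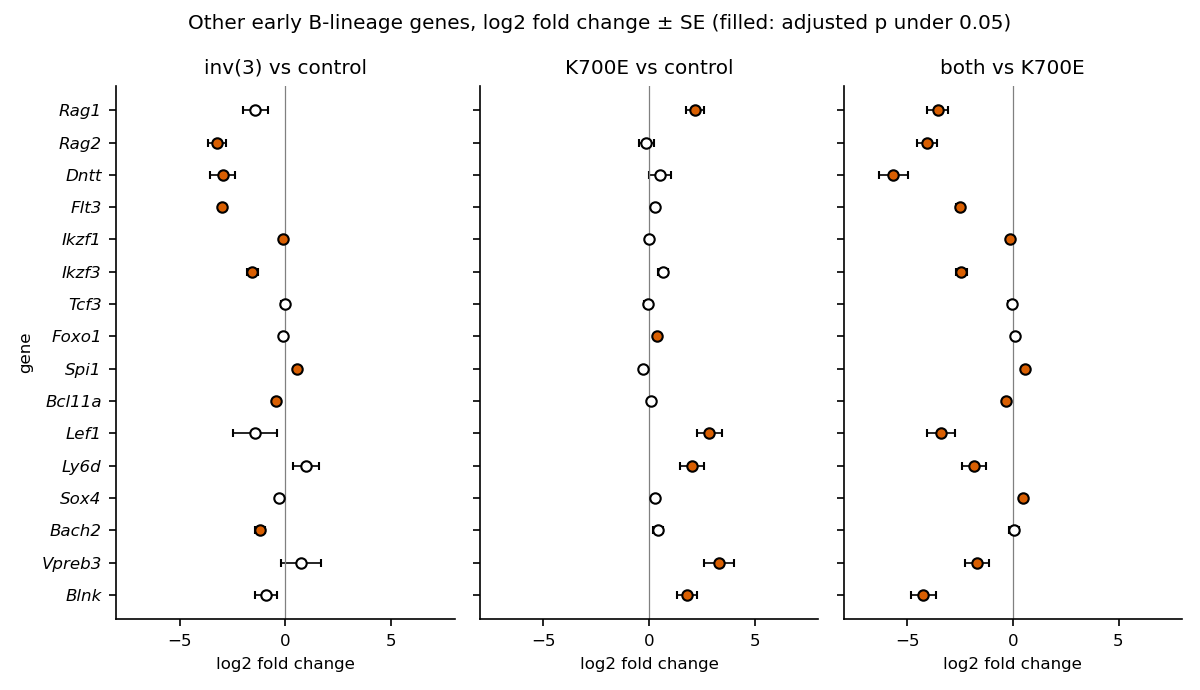
Log2 fold change with its SE for the 16 tested genes of the wider early B-lineage list in 3 comparisons (3 libraries per group), filled where the adjusted p is under 0.05. Rag2, Dntt and Flt3 lie far to the left in inv(3) against control and near 0 in Sf3b1 K700E against control, while Rag1, Lef1 and Vpreb3 lie to the right in the latter. Rag1, Lef1 and Vpreb3 met the low-count filter only with the Sf3b1 K700E libraries.

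Genes listed for mature B cells were uneven in level. Ms4a1, which encodes CD20, had 0 to 4 counts per library and Cr2, the complement receptor of mature B cells, 0 to 3, while Cd37, a membrane protein of many leukocytes, averaged 155 CPM (counts scaled to the library total) in control and Siglecg 76.8. Of the 16 mature B genes 12 were tested, and in Sf3b1 K700E against control 1 rose and 2 fell. Among all tested genes 3.94% rose and 4.9% fell there. Fcer2a, the low-affinity IgE receptor, had 2, 3 and 4 counts in control, 252, 51 and 159 in inv(3), 8, 10 and 3 in Sf3b1 K700E and 630, 371 and 1063 with both alleles, a direction opposite to that of Cd22. Kinases and adaptors of B-cell receptor signalling that myeloid cells also use were abundant. In inv(3) against control 18.4% of all tested genes rose and 20.3% fell. Of the 15 listed signalling genes 14 were tested, and 7 rose and 2 fell there, while 1 rose and 5 fell in Sf3b1 K700E against control. Those that rose in inv(3) include Ptpn6, the phosphatase that Cd22 recruits, at 0.53 (adjusted p = 3.79e-06).

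Tissue macrophage genes rose beside Ebf1, Pou2af1 and Cd79a in Sf3b1 K700E. Of 15 tissue macrophage genes 14 were tested, and 11 rose and none fell against control, where 3.94% of all tested genes rose and 4.9% fell. In CPM the list summed to 363 to 444 in control libraries, to 496 to 706 in those of Sf3b1 K700E, to 82.1 to 128 in those of inv(3) and to 69.9 to 90.1 with both alleles, and no gene of the list was at 0 in all libraries of a group. Most of the sum in control was Vcam1, which differed by -0.14 in Sf3b1 K700E (adjusted p = 0.734). Without it, a sum added after its values were seen, the list ran from 58.3 to 91.1 CPM in control, 40.2 to 55.7 with inv(3), 177 to 370.2 with Sf3b1 K700E and 32.1 to 48.1 with both alleles. Axl, a receptor for dying cells, had 4880, 5940 and 3138 counts in the Sf3b1 K700E libraries and changed by 2.12 ± 0.30 against control (adjusted p = 0.00582). Xist rose by 2.28 ± 0.35 (adjusted p = 0.00701). In CPM, Pax5, Pou2af1 and Il7r were, like Axl and Xist, highest in replicate 2 and lowest in replicate 3 of that group. Ebf1, Cd79a, Vpreb1 and Igll1 were highest in replicate 1, with Cd79a also lowest in replicate 3. Cd22 and Cd79b were highest in replicate 3. The part of these other transcripts in the members' rise was not tested.

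Genes of plasma cells and of other lymphoid cells were read in Sf3b1 K700E against control, where 3.94% of all tested genes rose and 4.9% fell. Of 8 plasma cell genes 7 were tested and 1 rose: Jchain, which joins secreted antibody chains, had 188, 189 and 115 counts in control and 676, 1644 and 701 in Sf3b1 K700E (2.57 ± 0.44, adjusted p = 0.00846). The summed plasma list ran from 232 to 240 CPM in control libraries, 230 to 252 in those of Sf3b1 K700E, 241 to 296 in those of inv(3) and 229 to 267 with both alleles, nearly all of it Xbp1. Without Xbp1 it ran from 5.48 to 5.49 CPM in control, 12.9 to 28.6 with Sf3b1 K700E, 2.35 to 4.10 with inv(3) and 3.30 to 4.49 with both alleles. The median log2 change of the 7 tested plasma genes in Sf3b1 K700E was 0.78. Of 12 T-cell genes 5 were tested, and 1, Cd4, rose, by 1.94 (adjusted p = 0.0229). The defining T-cell chains Cd3d, Cd3e and Cd3g had 0 to 10 counts per library, Cd3e and Cd8b1 were at 0 in all control libraries, and the summed T-cell list ran from 3.78 to 4.62 CPM in control and 5.89 to 7.99 in Sf3b1 K700E, without overlap. Of 10 NK and innate lymphoid genes 6 were tested and 1, Klrd1, rose. Klrd1 met the low-count filter only with the Sf3b1 K700E libraries, so its rise is partly built in. Of 7 plasmacytoid dendritic cell genes none of 6 rose or fell, and of 8 stromal and endothelial genes none of 6 did.

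Against control, 20.3% of all tested genes fell and 18.4% rose in inv(3). Plasmacytoid dendritic genes fell beside Cd22, Vpreb1 and Igll1 in inv(3): 4 of 6 tested were lower than in control and none higher. Their summed level was 253 to 279 CPM in control, most of it Irf8, and 100.2 to 146 in inv(3). Without Irf8, a sum added after its values were seen, it was 73.1 to 80.6 CPM in control and 51.9 to 52.8 in inv(3). Irf8, a factor of these and of early lymphoid and myeloid cells, changed by -1.35 (adjusted p = 0.00491). Of the tested macrophage genes 9 of 14 fell and 1 rose in inv(3). Of the NK and innate lymphoid genes 3 of 6 fell and none rose, and of the stromal and endothelial genes 3 of 6 fell and 2 rose. Plasma cell genes were split, with 2 of 7 lower and 2 higher, and of 5 T-cell genes 1 fell and none rose. Of 7 progenitor genes 3 fell and 2 rose in inv(3). In Sf3b1 K700E 2 of them fell and none rose, where 4.9% of all tested genes fell and 3.94% rose. The part of these transcripts in the members' changes was not tested.

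The genes whose pattern was most like the mean standardised level of the 9 members, among 11539 others with a mean of at least 1 CPM over the 12 libraries, were Slc37a2 (r = 0.99), Pira2, Abcc3, Ccr3, Slco2b1, Mertk, Lgmn and Axl (r = 0.97). Mertk and Axl are on the macrophage list, and none of the 8 is on a B-lineage list. The limit of 1 CPM kept out low early B-lineage genes such as Rag1, Blnk, Vpreb3, Lef1 and Ly6d. The absence of B-lineage genes is therefore partly built in, and no conclusion is drawn from it. Mertk averaged 0.916 ± 0.314 CPM (SD, n = 3) in control libraries, 6.35 ± 2.51 in those of Sf3b1 K700E, 0.288 ± 0.223 in those of inv(3) and 0.348 ± 0.0675 with both alleles. These values describe 12 libraries that form 4 genotype groups, so genes with the same order of groups score high.

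**Figure D4:**
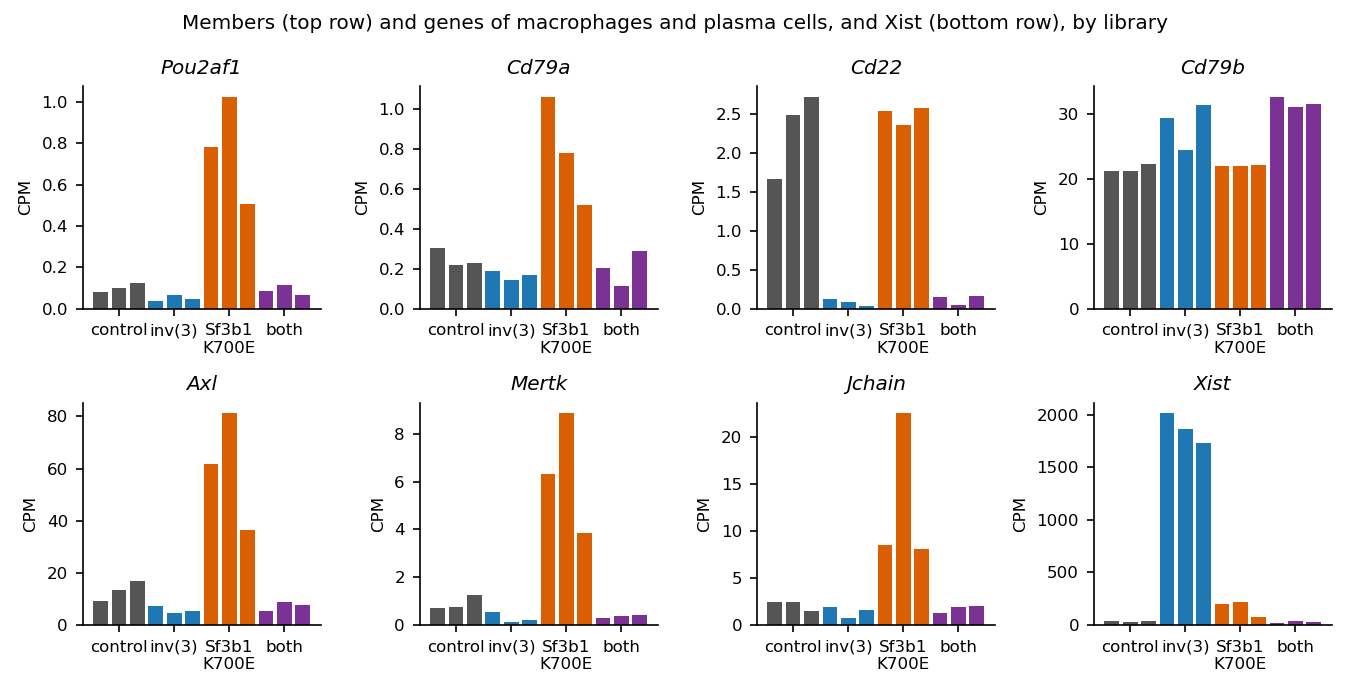
CPM in each of the 12 libraries for the members Pou2af1, Cd79a, Cd22 and Cd79b (top row) and for the macrophage genes Axl and Mertk, the plasma cell gene Jchain and Xist (bottom row), with bars for single libraries. Pou2af1 and Cd79a share their peak in Sf3b1 K700E with Axl, Mertk and Jchain, while Xist is highest in inv(3).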

How the data were processed

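Per the labels, RNA was poly(A)-selected and sequenced as unstranded TruSeq libraries, 3 in each of 4 donor genotypes. The submitters' processing notes name bcl2fastq and mm10, and the aligner and counter versions are not stated there or in the labels. Per the file headers, the authors deposited expected counts in the format of RSEM and TPM per gene, named by symbol, with the length and effective length in bases. Expected counts are estimates that were not normalized, and TPM was used for levels only.

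Expected counts were rounded, filtered with filterByExpr by group (13755 of 24411 genes kept), and scaled by TMM. A robust quasi-likelihood model in edgeR 4.0.16 under R 4.3.3 took all 4 groups, with 6 contrasts. P-values are two-sided, adjusted by Benjamini-Hochberg over all tested genes, with 0.05 as the limit, and SEs come from the F statistic. Totals of 73074797 to 86555638 make counting error large for genes of a few counts. The code was tested on simulated counts. Alternatives were DESeq2 1.42.0, voom in limma 3.58.1, RLE scaling, an offset for effective length, no filter, a stricter filter at a mean of 1 CPM, the compared groups alone, the fit without inv(3), a block for replicate number and each library left out. The members, the 11 other lists and the tests were chosen with earlier results of these data known. Named genes are the members, up to 4 genes of smallest p and the defining markers of each list, sex-linked genes and the 8 genes most like the members. Names given to complete a count, and Fcer2a, Ptpn6, Irf8, Cd37, Siglecg, Spi1, Bcl11a, Vcam1 and Xbp1 as examples, include some chosen after their values were seen. Gene positions and promoters come from RefSeq (GRCm38.p6), and overlaps also from GENCODE. A gene of the early B-lineage list is not reported here, and the counts of that list leave it out.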

Additional observations from a re-analysis of the deposited data

How the results depend on the processing

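The calls of Cd22, Cd79b, Vpreb1, Ebf1 and Pou2af1 given above held in every alternative in which the gene was tested, which for Ebf1 and Pou2af1 is partly built in by the low-count filter, and the calls that ended were those of Cd79a, Igll1 and Il7r. At a mean of at least 1 CPM, which leaves only Cd79b and Cd22 to test, 2 members were called in inv(3) against control, 0 in Sf3b1 K700E against control, 2 with both alleles against control and 2 with both alleles against Sf3b1 K700E. With a library left out, the members called ranged from 3 to 4, 2 to 3, 4 to 4 and 7 to 8 in these comparisons, and were 0 to 0 with both alleles against inv(3) and in the interaction. The number of all genes called in Sf3b1 K700E against control was 1216, and 1884 by DESeq2, 654 with the replicate number as a block and 168 to 1649 with a library left out. With both alleles against inv(3) it was 3103, and 1954 with only those groups and 1566 to 3342 with a library left out, with 1671 and 1566 without replicates 1 and 3 of both alleles. For the interaction it was 115, and 632 by DESeq2, 60 with the block and 32 to 323 with a library left out. The replicate numbers do not pair the samples by the data: 3 of 18 same-numbered pairs had r over 0.1 (-0.63 to 0.46). Beside the calls given above, the block ended that of Igll1 in inv(3) against control (adjusted p = 0.0565). Signs turned only for differences that passed in no fit. They were Ebf1 in inv(3) against control (-0.042 by limma-voom), Cd79b in Sf3b1 K700E against control (0.002 at a mean of at least 1 CPM) and Il7r with both alleles against inv(3) (-0.009 with the block), and the cause was not tested. With a library left out, signs turned for Ebf1 in inv(3) against control (-0.64 to 0.32), with both alleles against control (-0.70 to 0.23) and against inv(3) (-0.74 to 0.34), and for Il7r in the same comparisons (-0.69 to 0.20, -0.96 to 0.15 and -0.69 to 0.46). They also turned for Cd22 (-0.11 to 0.23) and Cd79b (-0.036 to 0.012) in Sf3b1 K700E against control, and for Vpreb1 (-0.31 to 0.10) and Cd79a (-0.11 to 0.49) with both alleles against inv(3). Depth limits Ebf1 and Pax5 most, at 3 counts or fewer per library outside Sf3b1 K700E.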
